A study of Mus musculus with 21 samples.

Results

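The interferon-stimulated genes examined here are 39 genes induced by type I or type II interferon, taken as the rows of the deposited count table whose symbol is on a fixed list. All 39 were found among the 24062 genes of the table, and all 39 passed the low-count filter that left 15936 genes for testing. They were measured by RNA sequencing in 21 libraries of mouse colon, 3 in each of 7 groups. All animals were C57BL/6, and nothing in the labels says that the libraries come from separate animals, so p-values measure the spread between these samples, which may be technical. Wild-type male normal colon, wild-type male tumours, wild-type female normal colon and wild-type female tumours are set beside male normal colon, male tumours and female normal colon of App NL-G-F mice, which carry a knocked-in App allele with Alzheimer's disease mutations. The allele sits at the endogenous locus and is thus not limited to one cell type. Tumours had been produced with AOM/DSS, the carcinogen azoxymethane together with the colitis-inducing dextran sulfate sodium. The normal libraries are labelled as non-treated, while the series description also allows tissue adjacent to tumours, so they are called normal colon. No knock-in female tumours were analysed here, and ages are not given in the sources used here.

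Interferons signal through surface receptors to the JAK kinases, which activate STAT transcription factors. Type I and type III interferons act on genes with the interferon-stimulated response element (ISRE), which is bound by a complex that holds STAT2 and IRF9, and interferon gamma acts on genes with the gamma-activated site (GAS). The induced genes encode sensors of foreign nucleic acid, antiviral effectors, GTPases that act against intracellular pathogens, the machinery that cuts and transports peptides for MHC class I, and chemokines that attract T cells. In the intestine, both epithelial and immune cells carry out this response.

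The members were ordered by role: 4 signalling and transcription factors, 4 nucleic acid sensors and their regulators, 19 antiviral effectors with the ISG15 system, 7 guanylate-binding proteins and immunity-related GTPases, 3 genes of peptide processing for MHC class I and 2 ligands of the chemokine receptor CXCR3. RefSeq promoter windows of build GRCm38.p6, the assembly of the mm10 build named for the files, were used for 30 of the 39. Any member window on a chromosome that the search skipped is not among them, while the count of all windows keeps that chromosome. Each window holds 300 bases, 250 before and 50 after an annotated start. They were searched on both strands for the ISRE core GAAANNGAAA and for the GAS core TTCNNNGAA, where N is any base. The ISRE core occurred in 17 of the 30 members, in 50% of their 34 windows and in 3.44% of all 32851 windows. The GAS core occurred in 8 of the 30 members, in 23.5% of their windows and in 8.30% of all windows. Both cores were present in 5 members and neither in 10. All 6 GTPase genes with a window used held the ISRE core, against 7 of 13 antiviral effectors and 0 of 3 peptide-processing genes. A match is a run of letters and no measured binding site.

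The windows below belong to members named in the comparisons that follow, with matches of either core in capitals and all other bases in lower case, 5′ to 3′ on the strand of the gene. Stat2 and Rsad2 differed between the genotypes in male tumours. Their windows are chr10:128270248-128270547 on the plus strand and chr12:26456403-26456702 on the minus strand, each with 1 ISRE core. Bst2, lower in the same comparison, has overlapping GAS and ISRE cores (chr8:71537423-71537722, minus strand). Irf1 (GAS core, chr11:53769764-53770063, plus strand), Ifih1 (ISRE core, chr2:62646206-62646505, minus strand) and Ddx58 (ISRE core, chr4:40239776-40240075, minus strand) are shown because tumours differed from normal colon in opposite directions for them. In Ifih1 and Ddx58 the match lies after the annotated start. Igtp (chr11:58199306-58199605, plus strand) stands for the GTPases and holds a GAS core next to an ISRE core.
Stat2: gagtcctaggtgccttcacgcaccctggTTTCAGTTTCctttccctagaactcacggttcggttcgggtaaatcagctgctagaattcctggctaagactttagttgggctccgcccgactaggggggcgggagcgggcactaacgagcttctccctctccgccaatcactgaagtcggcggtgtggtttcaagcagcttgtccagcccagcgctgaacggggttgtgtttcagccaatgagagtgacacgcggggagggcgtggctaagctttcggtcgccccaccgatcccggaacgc
Rsad2: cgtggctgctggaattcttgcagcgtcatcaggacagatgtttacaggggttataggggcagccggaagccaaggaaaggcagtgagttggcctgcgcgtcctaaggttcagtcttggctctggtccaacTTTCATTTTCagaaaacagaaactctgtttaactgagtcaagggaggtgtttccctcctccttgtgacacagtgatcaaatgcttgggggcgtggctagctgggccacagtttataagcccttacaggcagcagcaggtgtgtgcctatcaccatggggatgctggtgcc
Bst2: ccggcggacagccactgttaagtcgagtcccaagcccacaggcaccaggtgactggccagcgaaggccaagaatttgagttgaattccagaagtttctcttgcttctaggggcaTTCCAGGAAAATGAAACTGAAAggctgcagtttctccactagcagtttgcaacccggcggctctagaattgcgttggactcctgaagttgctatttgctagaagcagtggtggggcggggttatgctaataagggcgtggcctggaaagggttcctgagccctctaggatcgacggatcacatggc
Irf1: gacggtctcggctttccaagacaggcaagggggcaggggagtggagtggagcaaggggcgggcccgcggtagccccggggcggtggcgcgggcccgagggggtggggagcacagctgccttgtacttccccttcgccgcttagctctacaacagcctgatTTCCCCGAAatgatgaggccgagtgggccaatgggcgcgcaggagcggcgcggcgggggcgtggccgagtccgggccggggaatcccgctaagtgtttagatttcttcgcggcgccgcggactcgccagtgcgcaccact
Ifih1: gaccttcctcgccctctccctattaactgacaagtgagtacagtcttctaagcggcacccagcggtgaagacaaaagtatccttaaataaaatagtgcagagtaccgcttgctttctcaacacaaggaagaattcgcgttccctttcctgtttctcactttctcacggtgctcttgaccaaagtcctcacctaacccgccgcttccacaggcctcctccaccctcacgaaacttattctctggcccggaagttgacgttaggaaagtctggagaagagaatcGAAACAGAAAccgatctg
Ddx58: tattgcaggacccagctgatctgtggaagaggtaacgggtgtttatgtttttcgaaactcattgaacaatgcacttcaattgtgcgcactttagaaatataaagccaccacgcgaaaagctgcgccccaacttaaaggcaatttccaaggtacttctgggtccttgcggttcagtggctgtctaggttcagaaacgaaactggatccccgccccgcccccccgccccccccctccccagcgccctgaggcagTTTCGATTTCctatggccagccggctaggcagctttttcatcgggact
Igtp: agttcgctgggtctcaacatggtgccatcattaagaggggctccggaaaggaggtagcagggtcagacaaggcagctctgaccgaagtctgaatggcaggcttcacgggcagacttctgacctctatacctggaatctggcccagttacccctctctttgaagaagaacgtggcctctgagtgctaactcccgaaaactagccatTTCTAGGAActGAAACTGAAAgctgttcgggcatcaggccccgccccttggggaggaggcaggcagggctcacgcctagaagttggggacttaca

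Library totals ran from 3414123 counts in wild-type male tumour 2 to 26174008 in wild-type female normal 1. At a floor of 3 counts the smallest measurable level was thus between 0.115 and 0.879 CPM (the count scaled to a common library size after TMM normalization), for counting error only. Colon epithelium markers, among them Cdx2 and Vil1, summed to at least 5773 CPM in every library. Smooth muscle markers summed to 1853 to 9011 CPM in normal libraries and to 163 to 936 CPM in tumours. Xist and the Y-linked genes matched the sex labels in all 21 libraries. For knock-in female normal colon, 2 columns of counts carry one name, and they are called a and b beside replicate 1. The labels number the libraries 99 to 117 for wild-type and 129 to 141 for knock-in mice, except wild-type female tumours 2 and 3 and knock-in male tumour 3, which carry 152 to 154.

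Per kilobase of transcript, the member with the highest mean level over all libraries was Irf1, a transcription factor induced by interferon gamma, at 58.8 CPM per kb. It was followed by Parp14, an ADP-ribosyltransferase, at 20.7 and Gbp2, a guanylate-binding protein, at 20.3 CPM per kb. The chemokine gene Cxcl10 was lowest at 0.851 CPM per kb. Member levels varied more between libraries of a group than other genes did. The median coefficient of variation of the members was 49.0% in knock-in male normal colon, 51.8% in knock-in male tumours and 48.5% in normal colon of knock-in females, against 16.8%, 15.2% and 12.3% for genes of the same range of levels. In wild-type male tumours the 2 medians were 19.5% and 12.5%, and in wild-type female normal colon 18.8% and 14.2%.

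Single libraries carried much of this spread. Knock-in female normal 1 was the highest of its 3 libraries for 39 of 39 members, at a median of 1.99 times the mean of the other 2. Knock-in male normal 2 was the highest for 35 of 39, with a median ratio of 2.15. Knock-in male tumour 2 was the lowest for 34 of 39, with a median ratio of 0.448, and wild-type female tumour 1 was the highest for 36 of 39, with a median ratio of 1.71. Markers common to leukocytes summed to 273.9 CPM in knock-in male normal 2, the highest sum of the 21 libraries, and to 59.5 CPM in knock-in male tumour 2, the lowest. In knock-in female normal 1 that sum was 179 CPM, between the 94.1 and 215 CPM of the other libraries of its group. Whether leukocyte content has a part in the spread of the members was not tested, and in bulk tissue fewer cells of a type and less RNA per cell cannot be told apart. The members' median without these libraries is given below for the comparisons they enter.

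**Figure D1:**
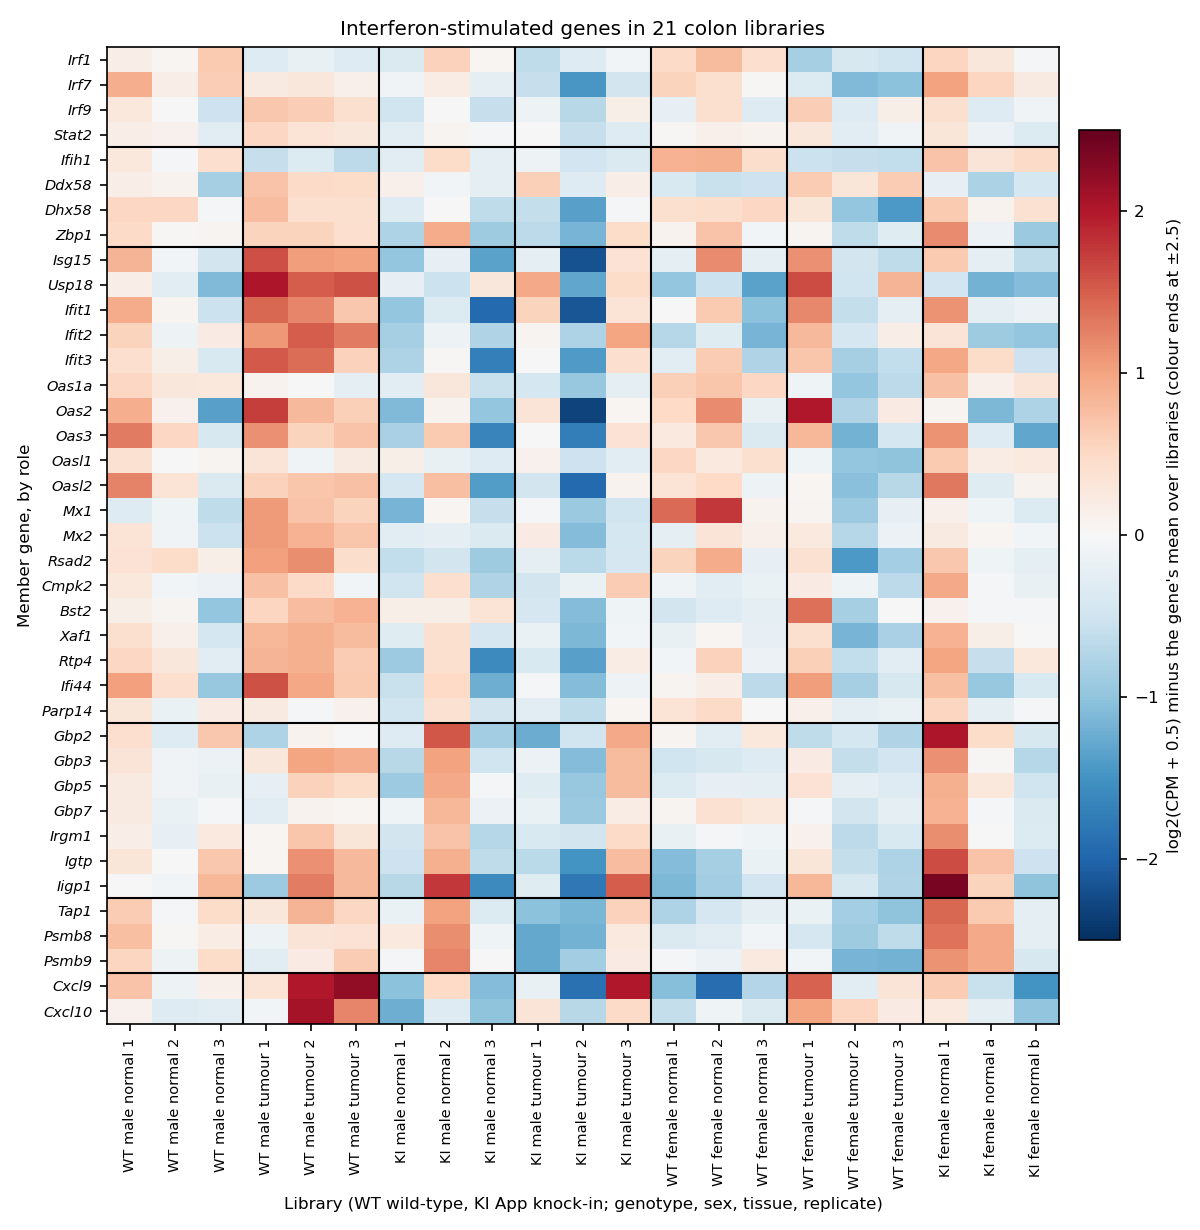
Level of each of the 39 members (rows, by role, black lines between roles) in each of the 21 libraries (columns, black lines between groups), as log2(CPM + 0.5) minus the mean of the gene over all libraries, with red above and blue below that mean. The 3 wild-type male tumours are red for most antiviral effectors, and knock-in male tumour 2, the lowest of its 3 libraries for 34 of 39 members, is blue throughout.

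Of the 9 comparisons, the members' median lay farthest from 0 between the genotypes in male tumours. Of the 39, the knock-in tumours had 8 lower and 0 higher, by the quasi-likelihood test of edgeR at a threshold of 0.05 after Benjamini-Hochberg adjustment over all tested genes. Over all 15936 genes, 14.5% were called, 9.30% higher and 5.23% lower. The median log2 fold change was -0.90 for the members and 0.05 for all genes, and 37 of 39 members were below 0, against 45.8% of all genes. In 20 members all 3 knock-in tumours lay below all 3 wild-type tumours, and 16 of these were antiviral effectors; of all genes, 16.1% had such a separation downwards. The called members were the transcription regulators Stat2 and Irf7, the sensor regulator Dhx58 and the effectors Mx1, Mx2, Rsad2, Bst2 and Xaf1.

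Stat2 (chr10:128270498-128292853), the STAT of the type I response, was at 67.3, 59.1 and 57.2 CPM in wild-type male tumours 1 to 3 and at 46.1, 31.1 and 37.4 CPM in knock-in male tumours 1 to 3. The groups did not overlap, and Stat2 was 1.60-fold lower in knock-in tumours (edgeR log2 fold change -0.68, SE 0.18, adjusted p 0.022). Irf7 (chr7:141263183-141266499), which amplifies type I interferon production, was at 63.9, 66.9 and 59.8 CPM in wild-type and at 36.5, 19.7 and 39.7 CPM in knock-in male tumours. All 3 knock-in values were below the lowest wild-type value (edgeR log2 fold change -0.99, SE 0.27, adjusted p 0.0254). The other transcription regulators were not called, with Irf9 at -0.76 on the log2 scale (SE 0.28, adjusted p in edgeR 0.0758) and Irf1 at -0.05 (SE 0.22, adjusted p in edgeR 0.893). The 95% interval for Irf1 ran from -0.48 to 0.38.

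Dhx58 (chr11:100694884-100704271) encodes LGP2, which modulates the RNA sensors RIG-I and MDA5. It was at 18.9, 14.6 and 14.6 CPM in wild-type and 7.01, 3.96 and 10.7 CPM in knock-in male tumours (edgeR log2 fold change -1.17, SE 0.38, adjusted p 0.045). The RNA sensor genes themselves were not called: Ddx58, which encodes RIG-I, had a log2 fold change of -0.37 (-0.83 to 0.09, 95% interval) and Ifih1, which encodes MDA5, 0.21 (-0.16 to 0.57). Zbp1, a sensor of Z-form nucleic acid, was at -0.81 (-1.90 to 0.27).

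All 19 antiviral effectors had a log2 fold change below 0 in knock-in male tumours, with a median of -1.29 and 5 called. Mx1 (chr16:97447035-97462906), a dynamin-like GTPase that inhibits viruses in the nucleus and is carried by C57BL/6 mice as a defective allele, was at 10.2, 7.86 and 7.0 CPM in wild-type and 4.42, 2.19 and 3.13 CPM in knock-in male tumours (edgeR log2 fold change -1.37, SE 0.42, adjusted p 0.0365). Its relative Mx2 (chr16:97536081-97560901) was at 6.41, 5.53 and 4.88 and 3.33, 1.06 and 1.96 CPM in the same order (edgeR log2 fold change -1.41, SE 0.37, adjusted p 0.0215). Neither gene's groups overlapped. Rsad2 (chr12:26442743-26456452), which encodes the radical SAM enzyme viperin, was at 16.4, 18.0 and 10.8 CPM in wild-type and 6.53, 4.73 and 5.68 CPM in knock-in tumours (edgeR log2 fold change -1.40, SE 0.39, adjusted p 0.027). Bst2 (chr8:71534255-71537472) encodes tetherin, which holds budding virions at the cell surface. It was at 10.6, 12.5 and 13.4 and 5.17, 3.08 and 6.56 CPM (edgeR log2 fold change -1.31, SE 0.42, adjusted p 0.0454). Xaf1, a proapoptotic factor at chr11:72301461-72313733, was at 15.3, 16.0 and 15.0 and 7.42, 3.61 and 8.03 CPM (edgeR log2 fold change -1.29, SE 0.39, adjusted p 0.0359). For each of these 3 genes, every knock-in tumour was below every wild-type tumour.

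The largest fold differences in this comparison belonged to effectors that did not pass the test. Isg15, a ubiquitin-like modifier, differed by -1.77 on the log2 scale (SE 0.69, adjusted p in edgeR 0.0903), with wild-type values of 15.4, 10.2 and 9.85 CPM and knock-in values of 3.88, 0.651 and 6.17 CPM. Knock-in male tumour 2 had the lowest Isg15 level of all libraries. Ifi44 was at -1.65 (SE 0.65, adjusted p in edgeR 0.0931), and the 3 Ifit genes lay between -1.48 and -1.06. The effectors nearest to 0 were Cmpk2 at -0.35 and Parp14 at -0.36.

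The calls rest on few libraries. Dhx58 lost its call in 12 of 17 alternatives, Bst2 in 10, Irf7 and Mx1 in 8 each and Xaf1 in 7. Stat2 and Rsad2 lost theirs in 4 of 17 each, and Mx2 in 3 of 16. Without wild-type male tumour 1 or without knock-in male tumour 2, 0 members were called in edgeR, with 12 and 9 at an unadjusted p under 0.05. Without wild-type male tumour 2 or 3 there were 2 and 3 calls, without knock-in male tumour 1 there were 6, and without knock-in male tumour 3 there were 10. The members' median lay between -1.41 without knock-in male tumour 3 and -0.61 without knock-in male tumour 2. Among the macrophage markers, 3 of 6 were called lower in knock-in male tumours, while Mrc1 had a log2 fold change of 0.38 without a call. The macrophage sums overlapped, at 138 to 209.9 CPM against 200.04 to 319.8 CPM. Leukocyte markers summed to 59.5 to 125 against 109 to 144 CPM with 0 of 4 called, and smooth muscle markers to 805 to 936 against 174 to 694 CPM with 0 of 6 called. Colon epithelium markers separated the groups, at 8137 to 13940.0 against 6570.1 to 7112 CPM, with Muc2, which encodes a secreted mucin, higher in the knock-in (edgeR log2 fold change 1.38, SE 0.44, adjusted p 0.0466). Of 4 endothelium markers, Tek was higher (edgeR log2 fold change 0.88, SE 0.21, adjusted p 0.0129). Among the T and NK cell markers, 0 of 9 tested were called, with sums of 4.32 to 17.9 against 8.35 to 17.5 CPM. Of the genes listed as plasmacytoid dendritic cell markers, 0 of 3 tested were called. Their log2 fold changes were -0.59 for Siglech, 0.40 for Ccr9 and 1.39 for Klk1, and whether they are specific to these cells in colon was not tested. The part of these cells in the result was not tested. With a covariate for the 3 libraries numbered 152 and above, 1 member was called (median -1.03).

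**Figure D2:**
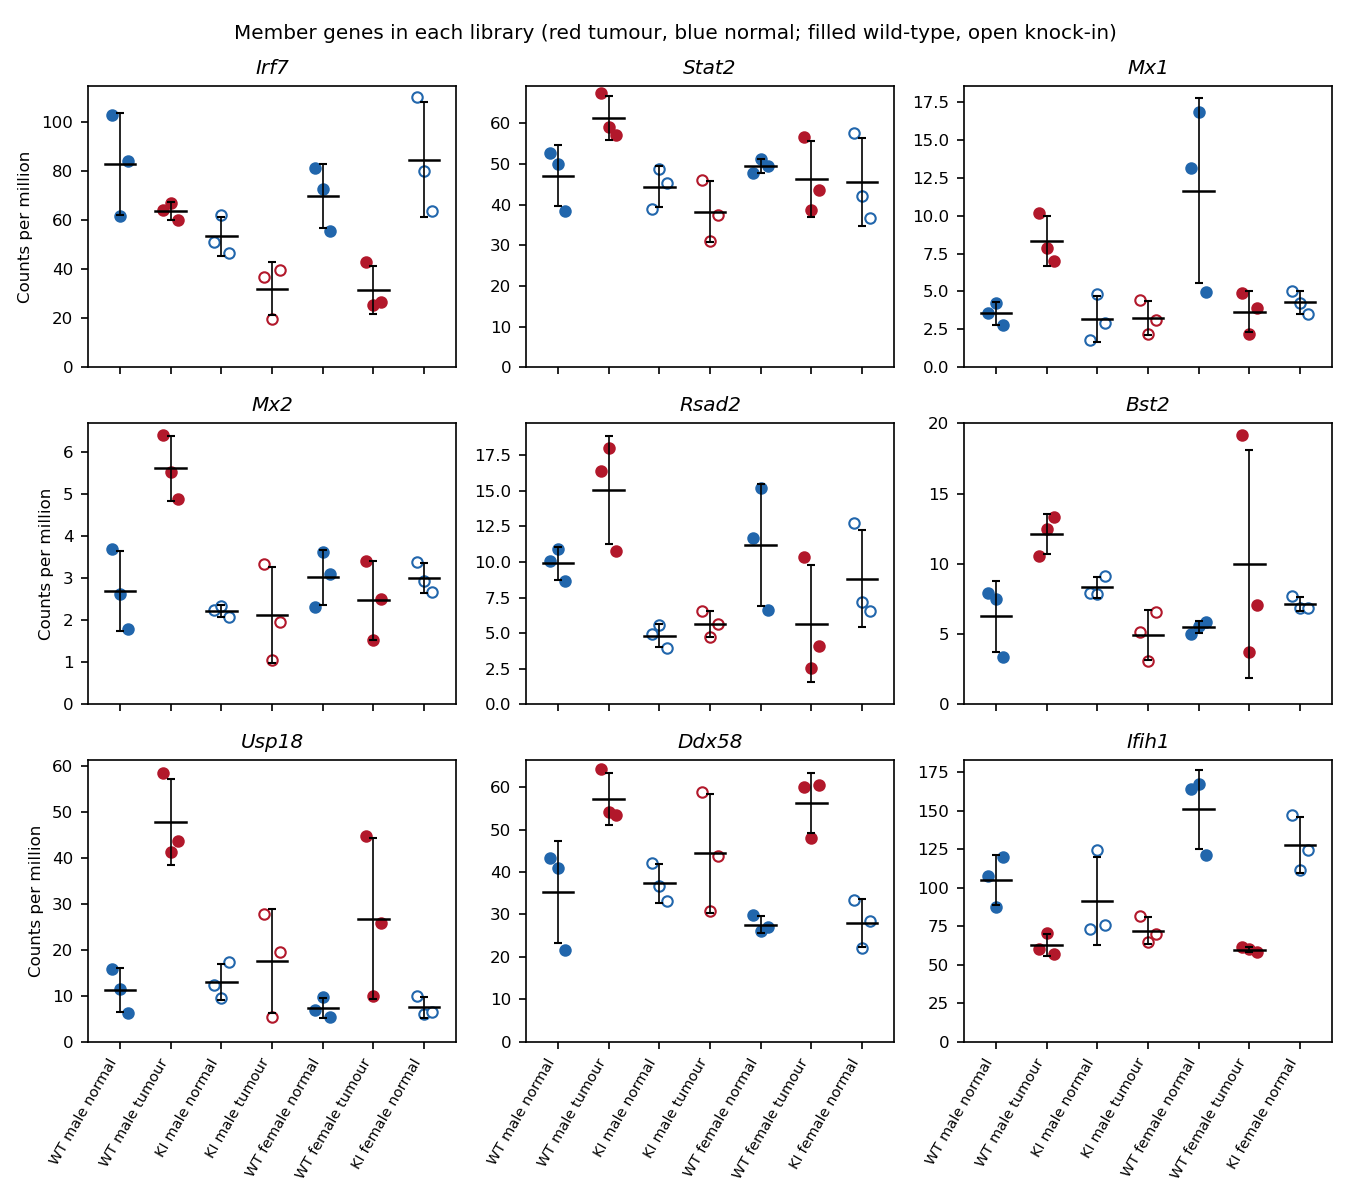
CPM of 9 members in each library (points), with the mean (line) and the SD of 3 libraries (bars) for each group; wild-type libraries are filled, knock-in open, tumours red and normal colon blue. Stat2, Mx1, Mx2, Rsad2 and Bst2 are lower in all 3 knock-in than in all 3 wild-type male tumours, and Ifih1 and Ddx58 go in opposite directions in the tumours of wild-type males and females.

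Tumours of wild-type males had 5 members higher and 2 lower than normal colon, where 35.7% of all genes were called. The share of members called was thus below that of all genes. The median log2 fold change was 0.38 for the members, 0.79 for the 19 antiviral effectors and 0.01 for all genes. The groups did not overlap in 12 members higher and 3 lower, against 26.0% and 26.4% of all genes. Usp18, Cxcl10, Mx1, Mx2 and Ddx58 rose, and Ifih1 and Irf1 fell.

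Usp18 (chr6:121245906-121270917), the protease that removes ISG15 from proteins and dampens type I receptor signalling, was at 15.9, 11.5 and 6.27 CPM in normal colon of wild-type males 1 to 3 and at 58.6, 41.3 and 43.7 CPM in the tumours. This 4.23-fold rise was the largest among the called members (edgeR log2 fold change 2.08, SE 0.54, adjusted p 0.00732). Mx1 was at 3.59, 4.27 and 2.79 CPM in normal colon and rose 2.35-fold to the tumour values given above (edgeR log2 fold change 1.23, SE 0.41, adjusted p 0.0264), and Mx2 rose from 3.68, 2.62 and 1.79 CPM (edgeR log2 fold change 1.03, SE 0.36, adjusted p 0.0325). Neither Usp18, Mx1 nor Mx2 overlapped between the groups. Parp14 (chr16:35831892-35871518), the effector with the highest mean level, was at 185, 133 and 172 CPM in normal colon and 176, 144 and 161 CPM in tumours, with overlapping groups (edgeR log2 fold change -0.02, SE 0.24, adjusted p 0.956).

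The RNA sensor genes changed in opposite directions. Ifih1 (chr2:62595618-62646255) fell from 108, 87.3 and 120.0 CPM in wild-type male normal colon to 60.3, 70.7 and 56.9 CPM in tumours (edgeR log2 fold change -0.75, SE 0.19, adjusted p 0.00454). Ddx58 (chr4:40203777-40239825) rose from 43.4, 41.0 and 21.6 CPM to 64.2, 54.1 and 53.4 CPM (edgeR log2 fold change 0.69, SE 0.23, adjusted p 0.028). In both genes all tumour libraries lay on one side of all normal libraries. Irf1 (chr11:53770014-53778374) fell from 134, 124 and 189 CPM to 96.0, 105 and 96.0 CPM (edgeR log2 fold change -0.59, SE 0.22, adjusted p 0.0449), while Irf7, Irf9 and Stat2 were not called.

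Cxcl10 (chr5:92346638-92348889), a ligand of CXCR3 on activated T cells, was at 1.70, 1.12 and 1.19 CPM in normal colon of wild-type males and at 1.44, 8.15 and 4.24 CPM in tumours. Tumour 1 lay within the range of normal colon, so the groups overlapped although the gene was called (edgeR log2 fold change 1.67, SE 0.58, adjusted p 0.0315). With the replicate number as a block, the adjusted p was 0.0553 and the log2 fold change 1.58. The call was also lost with limma voom and with the compared groups alone. Without tumour 2, the smallest library, the adjusted p was 0.179, and it was 0.0655 without tumour 3, 0.0857 without normal 2 and 0.0932 without normal 3.

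In wild-type males, Usp18 and Ifih1 kept their calls under all 17 alternatives, including the omission of each library. Ddx58 lost its call with the compared groups alone, and without normal 3 (edgeR adjusted p 0.144) or tumour 1 (0.118). Mx1 lost its call without normal 1 (0.0691), normal 3 (0.101) or tumour 1 (0.113). The number of members called was 2 without normal 3, 3 without tumour 1, 4 without tumour 2 and 5 or 6 in the other omissions. Irf1 lost its call without normal 3 (0.24), without tumour 1, 2 or 3, with library totals and with no low-count filter. Mx2 lost its call without normal 2 or 3 or tumour 1 or 2, with adjusted p up to 0.14. Neutrophil markers summed in these tumours to 32.2 to 61.4 CPM against 1.89 to 24.3 CPM in normal colon with 1 of 5 called, while leukocyte markers summed to 109 to 144 and 69.6 to 169 CPM with 0 of 4 called. Colon epithelium markers were lower, with 8 of 9 called, and smooth muscle markers too, with 6 of 6. The part of tissue composition was not tested.

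In knock-in males, 0 members were called between tumours and normal colon by edgeR, where 20.4% of all genes were called, 10.4% higher and 9.97% lower; 4 members had an unadjusted p under 0.05, and the DESeq2 test called 2. The members' median log2 fold change was -0.14, and it was 0.31 without normal 2, the library with high member levels, 0.10 without tumour 2 and 0.07 with limma voom, so that no direction can be given. Values below 0 were found for 24 of the 39, against 49.5% of all genes. Without knock-in male tumour 3 there were 3 calls, all lower, and without knock-in male normal 1 there was 1, also lower. Usp18 was at 12.2, 9.56 and 17.3 CPM in normal colon and 27.7, 5.44 and 19.6 CPM in tumours, with a 95% interval of the log2 fold change from -0.61 to 1.47. Tumour 2 lay below and tumours 1 and 3 above all 3 normal libraries. For Mx1 the normal values of 1.78, 4.81 and 2.94 CPM enclosed the tumour values (95% interval -0.81 to 0.83). Ifih1 was at 73.5, 124 and 75.9 CPM in normal colon and 81.7, 64.4 and 69.8 CPM in tumours (95% interval -0.70 to 0.02), and Ddx58 at 42.2, 36.8 and 33.1 and 58.8, 30.8 and 43.8 CPM (95% interval -0.21 to 0.71). Irf7 was at 51.1, 61.9 and 46.7 CPM in normal colon, above all 3 tumours (edgeR log2 fold change -0.74, SE 0.27, adjusted p 0.0582). Leukocyte markers were at 59.5 to 125 CPM in these tumours and 145 to 274 CPM in normal colon with 1 of 4 lower, and B cell markers fell in 4 of 6 genes. Their part was not tested.

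The difference between the genotypes in the tumour effect was tested directly as an interaction in males, and 0 members passed in edgeR, with 4 at an unadjusted p under 0.05 and 1 called by DESeq2. Of all genes, 1.51% were called. The interaction was below 0 for 34 of 39 members, against 46.6% of all genes, with a median of -0.49. That median was -0.08 without knock-in male normal 2, -0.21 without knock-in male tumour 2 and -0.94 without knock-in male tumour 3. Bst2 had the most negative value (edgeR interaction -1.70, SE 0.59, adjusted p 0.0973). For Usp18 it was -1.65, with a 95% interval from -3.11 to -0.18. That members passed in wild-type and not in knock-in males is therefore not shown to be a difference between the genotypes.

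**Figure D3:**
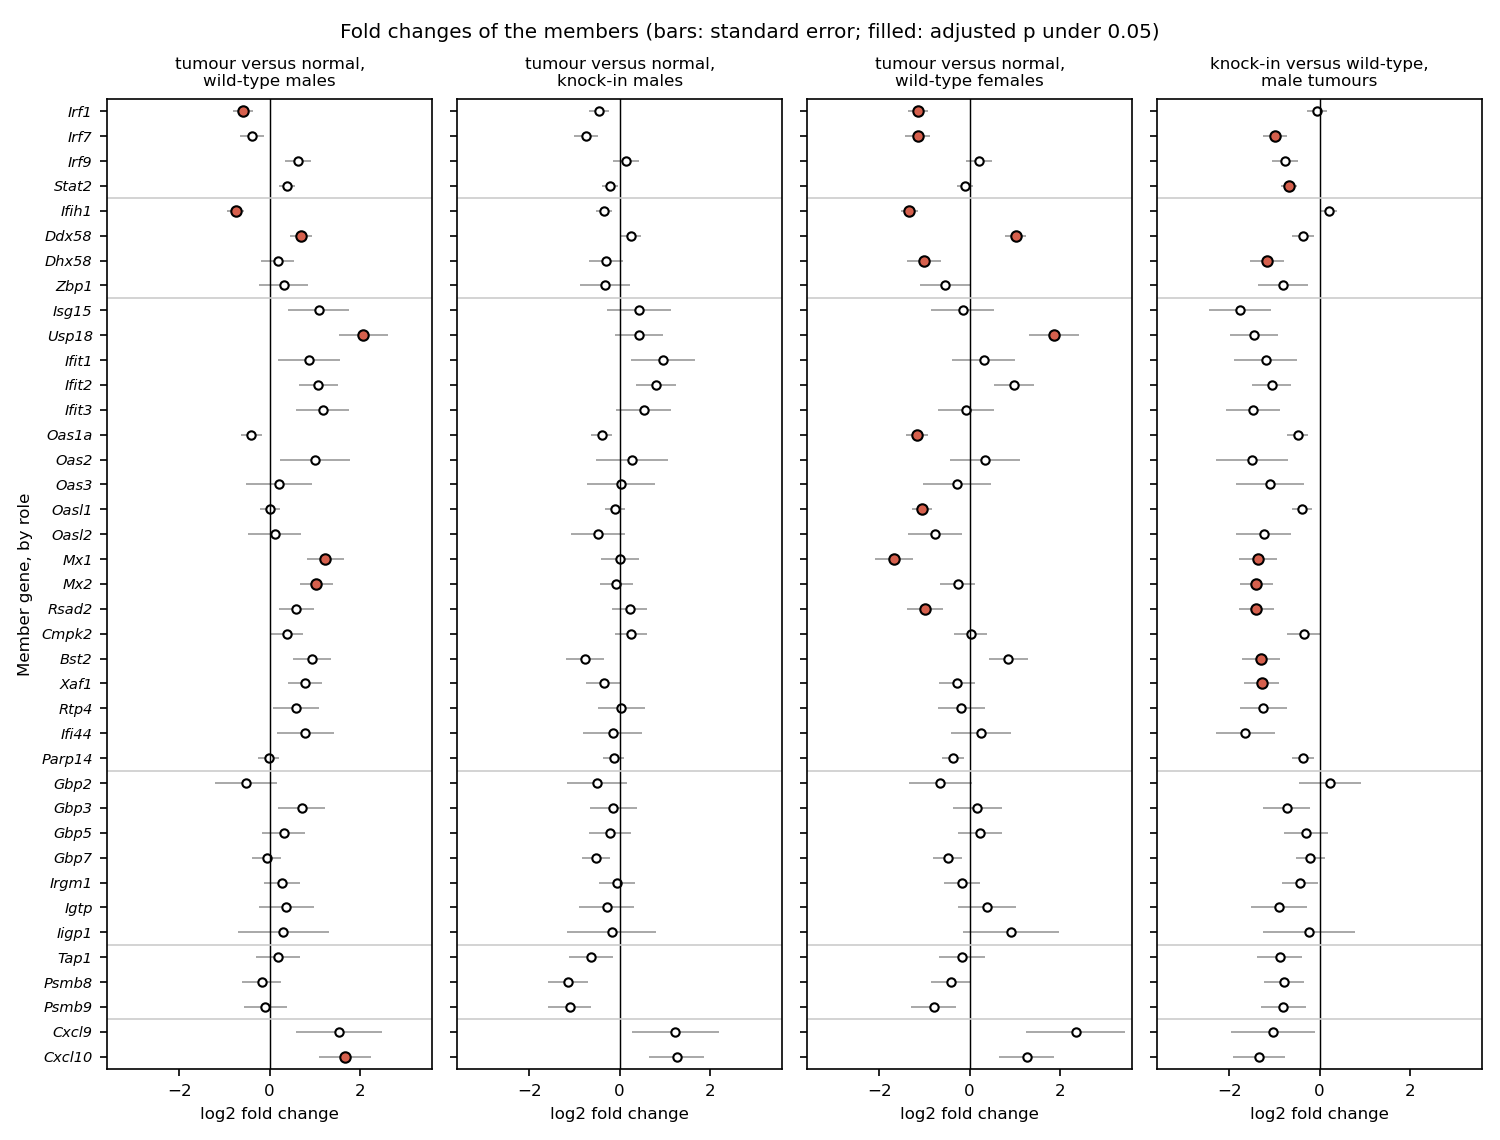
Log2 fold change of each member (points, with the standard error as bars) in the 3 tumour comparisons and in knock-in against wild-type male tumours; filled points passed an edgeR adjusted p of 0.05, and grey lines separate the roles. In the right panel 37 of 39 points lie left of 0, and in knock-in males 0 points are filled.

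In wild-type females, 2 members were higher and 8 lower in tumours than in normal colon, where 49.1% of all genes were called, 25.0% higher and 24.0% lower. The groups did not overlap in 4 members higher and 10 lower, against 29.9% and 28.6% of all genes. The median log2 fold change was -0.17 for the members and 0.01 for all genes, and it was -0.58 without tumour 1, the library with high member levels, and 0.01 without tumour 2. Usp18 and Ddx58 were higher, as in wild-type males, with no libraries shared between the male and female comparisons. Irf1, Irf7, Ifih1, Dhx58, Oas1a, Oasl1, Mx1 and Rsad2 were lower.

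Ifih1 had the smallest adjusted p of all members. It was at 164, 168 and 121 CPM in normal colon of wild-type females and at 61.4, 59.9 and 58.2 CPM in tumours, a 2.53-fold fall (edgeR log2 fold change -1.34, SE 0.19, adjusted p 1.42e-05). Ddx58 was at 29.8, 26.1 and 26.9 CPM in normal colon and 60.2, 48.1 and 60.5 CPM in tumours, a 2.03-fold rise (edgeR log2 fold change 1.02, SE 0.24, adjusted p 0.00168). The 2 sensors thus separated the groups in opposite directions without overlap in both sexes of wild-type mice. Dhx58, the third RNA helicase of this family, was at 14.6, 14.9 and 15.9 CPM in normal colon and 13.6, 5.38 and 3.70 CPM in tumours (edgeR log2 fold change -1.02, SE 0.38, adjusted p 0.0344). It lost its call with library totals, the compared groups alone or the covariate for late library numbers, and without normal 1, 2 or 3 or tumour 2 or 3, with a highest adjusted p of 0.157 without tumour 3.

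Irf1 fell from 168, 209 and 160.3 CPM in wild-type female normal colon to 67.0, 90.5 and 84.9 CPM in tumours (edgeR log2 fold change -1.15, SE 0.22, adjusted p 0.000358), and Irf7 from 81.0, 72.5 and 55.4 CPM to 42.8, 25.1 and 26.6 CPM (edgeR log2 fold change -1.15, SE 0.27, adjusted p 0.00201). Both separated the groups. Stat2, at 47.8, 51.3 and 49.6 CPM in normal colon and 56.6, 38.7 and 43.6 CPM in tumours, was not called (edgeR log2 fold change -0.10, SE 0.18, adjusted p 0.68). Among the oligoadenylate synthetase family, which activates an RNA-degrading enzyme on meeting viral RNA, Oas1a (edgeR log2 fold change -1.17, SE 0.24, adjusted p 0.00053) and the related Oasl1 (edgeR log2 fold change -1.06, SE 0.23, adjusted p 0.000854) fell. Oas2, Oas3 and Oasl2 were not called, with log2 fold changes of 0.33, -0.29 and -0.77. Reads of Oas1a may be shared with near-identical copies such as Oas1g, and how such reads were assigned is not given in the sources used here.

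Usp18 was at 6.97, 9.62 and 5.26 CPM in normal colon of wild-type females and at 44.8, 9.83 and 25.8 CPM in tumours. Tumour 1 was the highest and tumour 2 lay next to the highest normal value (edgeR log2 fold change 1.87, SE 0.56, adjusted p 0.0108). Without tumour 1 the adjusted p was 0.0753. Mx1 went the other way, from 13.2, 16.9 and 4.96 CPM in normal colon to 4.89, 2.22 and 3.91 CPM in tumours (edgeR log2 fold change -1.68, SE 0.42, adjusted p 0.0028), and all 3 tumours lay below all 3 normal libraries, although normal 3 and tumour 1 lay close together. Rsad2 was at 11.7, 15.2 and 6.66 CPM in normal colon and 10.3, 2.57 and 4.13 CPM in tumours, with overlap (edgeR log2 fold change -1.0, SE 0.40, adjusted p 0.0447). Rsad2 lost this call in 8 of 17 alternatives: without normal 1 or 2 or tumour 2 or 3, and with library totals, the compared groups alone, the GC and length offset or the covariate for late library numbers. The adjusted p was highest, at 0.267, with the covariate.

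Irf1, Irf7, Ifih1, Ddx58, Oas1a, Oasl1 and Mx1 kept their calls in wild-type females under all 17 alternatives, and between 8 and 10 members were called when 1 library was left out. Neutrophil markers rose in these tumours in 5 of 5 genes, with sums of 51.9 to 159 CPM against 3.0 to 7.39 CPM in normal colon, and B cell markers fell in 4 of 6. Colon epithelium markers were lower in 9 of 9 genes, at 5773 to 9671 against 15766 to 26793 CPM, and smooth muscle markers in 6 of 6. Macrophage markers summed to 175 to 191 and 117 to 247 CPM. Their part in the members' changes was not tested.

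Wild-type female tumours were also set against wild-type male tumours, with the male libraries shared with the comparisons above. By edgeR 0 members were called, against 0.860% of all genes (0.458% lower), and 12 had an unadjusted p under 0.05; DESeq2 called 5, limma voom 17 and a fit of the compared groups alone 7, all lower in females. All 39 log2 fold changes were below 0, against 50.1% of all genes, with a median of -0.84. In 16 members every female tumour was below every male tumour, against 15.3% of all genes. Irf7 had the smallest adjusted p (edgeR log2 fold change -1.01, SE 0.27, adjusted p 0.066), and Rsad2 was at -1.41 (SE 0.40, adjusted p in edgeR 0.0721). Without wild-type female tumour 1, the library with high member levels, 3 members were called and the median was -1.29. B cell markers summed to 2.58 to 5.03 CPM in female and 12.8 to 22.2 CPM in male tumours, and macrophage markers to 175 to 191 and 200.04 to 319.8 CPM.

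In all, wild-type male tumours had the highest group mean of the 7 groups for 23 of the 39 members, knock-in female normal colon for 9 and wild-type female normal colon for 6. The lowest group mean fell to knock-in male normal colon for 11 members, to knock-in male tumours and wild-type female tumours for 10 each and to wild-type female normal colon for 8.

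**Figure D4:**
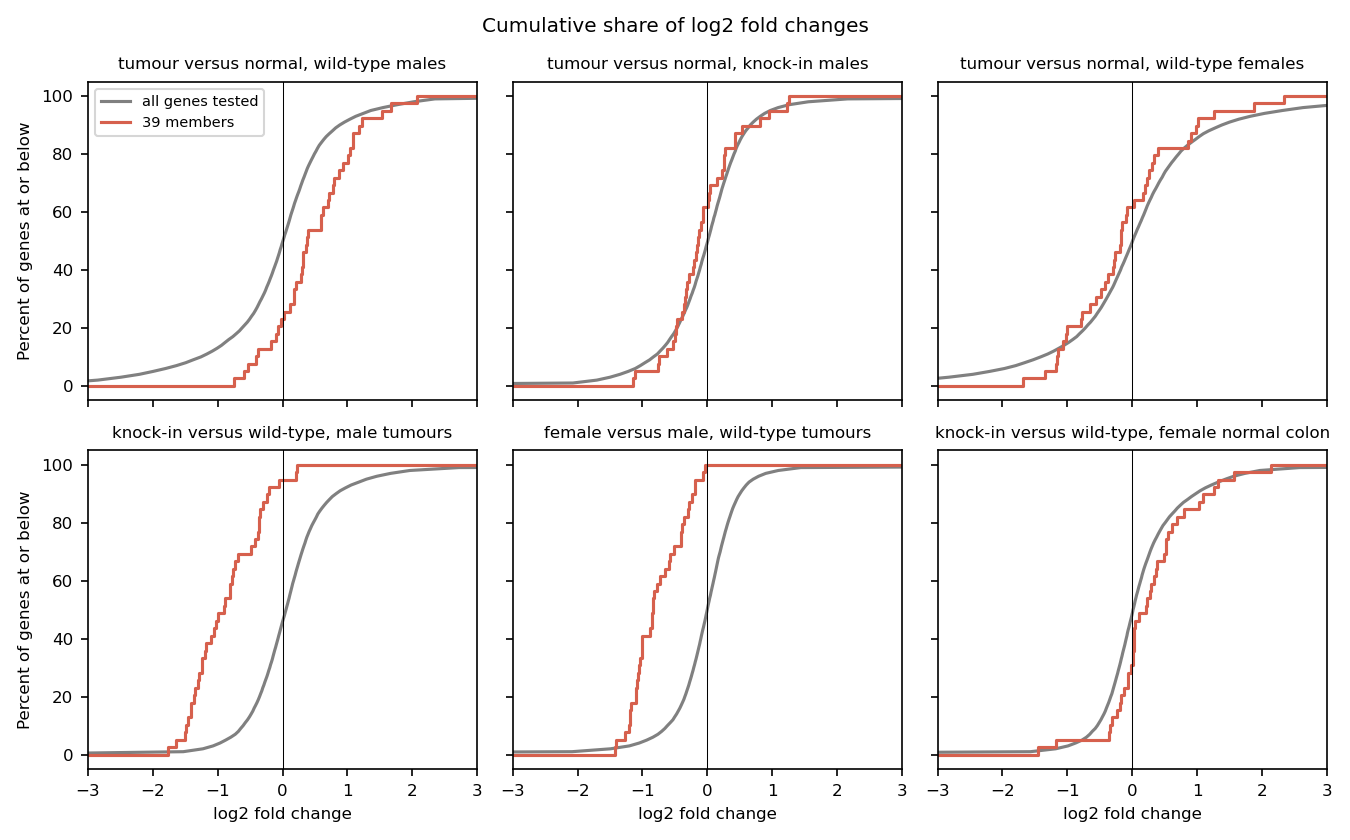
Cumulative share of the 39 members (red steps) and of all 15936 tested genes (grey) by log2 fold change in 6 comparisons, with the axis limited to values between -3 and 3. The member curve lies left of the grey curve in knock-in against wild-type male tumours, where the medians are -0.90 and 0.05, and in female against male wild-type tumours, where they are -0.84 and 0.00.

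In normal colon, 1 member was called between the genotypes, and only in females. In males 0 members were called by edgeR, by DESeq2 or by limma voom, with 3 at an unadjusted p under 0.05 in edgeR. Of all genes 0.0126% were called, 0.00628% higher and 0.00628% lower, and members with a value below 0 numbered 29 of the 39, against 49.9% of all genes. Without knock-in male normal 2 the members' median moved from -0.25 to -0.69. Rsad2 was the only member whose groups did not overlap there, at 10.1, 10.9 and 8.65 CPM in wild-type and 4.95, 5.57 and 3.98 CPM in knock-in normal colon (95% interval of the log2 fold change -1.79 to -0.27). By that criterion there were 0 members higher and 1 lower, against 3.75% and 3.33% of all genes. In females, where 16.0% of all genes were called, 8.97% as higher, Mx1 was lower in the knock-in and 0 members were higher. Members of the later roles had positive log2 fold changes without a call, Tap1 at 1.26 (95% interval 0.28 to 2.24) and Psmb8 at 1.09 (0.23 to 1.95). The female groups were without overlap in 1 members higher and 0 lower, against 19.6% and 18.2% of all genes, and values below 0 were seen for 12 of the 39, against 48.4% of all genes. The members' median was 0.21, and it turned to -0.21 without knock-in female normal 1, so that it has no stable direction. Without knock-in female normal b it was 0.40, with 2 members called higher. In knock-in female normal colon smooth muscle markers were higher in 2 of 6 genes, endothelium markers in 3 of 4 and leukocyte markers in 1 of 4, with leukocyte sums of 94.1 to 215 against 67.0 to 151 CPM, and their part was not tested.

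Mx1 was called in more comparisons than any other member, 5 of 9. Its level in normal colon of wild-type females, 13.2, 16.9 and 4.96 CPM, was the highest of all groups by mean, and normal 1 and 2 stood far above normal 3. In normal colon it was 3.29-fold higher in wild-type females than males (edgeR log2 fold change 1.72, SE 0.41, adjusted p 0.00918), the only member called of 39, against 15.9% of all genes (5.74% higher). The sexes did not overlap in 3 members higher and 8 lower, against 16.7% and 17.4% of all genes, with 4 of 7 GTPases among the lower ones. Values below 0 held for 24 of the 39, against 50.3% of all genes, with a median of -0.21, or 0.03 without wild-type male normal 1. Mx1 was 2.73-fold lower in knock-in female normal colon, at 5.06, 4.27 and 3.52 CPM, than in wild-type female normal colon (edgeR log2 fold change -1.45, SE 0.41, adjusted p 0.0221), although knock-in library 1 was above wild-type library 3. The second of these calls was lost without wild-type female normal 1 (edgeR adjusted p 0.0808), wild-type female normal 2 (0.126), knock-in female normal a (0.0816) or knock-in female normal b (0.0773). The first was lost without wild-type female normal 2 (0.0622).

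The tumour effect on Mx1 passed the test of a difference between the sexes of wild-type mice, but not under every alternative. The interaction, the female minus the male log2 fold change, was -2.91 (SE 0.59, adjusted p in edgeR 0.0246), with Mx1 higher in male and lower in female tumours than in normal colon. The adjusted p was 0.0586 with the replicate block and 0.0947 with the covariate for late library numbers, and the call was also lost without wild-type male normal 1, male tumour 1, female normal 1, female normal 2, female tumour 2 or female tumour 3. Mx1 was the only member called of 39, against 1.12% of all genes, and 7 had an unadjusted p under 0.05. The interaction was below 0 for 35 of 39 members, with a median of -0.53 against 0.03 for all genes. It was below 0 for all 19 antiviral effectors, from -2.91 for Mx1 to -0.08 for Bst2. The sex difference of the genotype effect in normal colon had 0 members called, against 2.54% of all genes, and 2 at an unadjusted p under 0.05. Its median was 0.68, and 0.15 without knock-in female normal 1. Between the sexes in knock-in normal colon 0 members were called as well, against 0.584% of all genes, with 5 at an unadjusted p under 0.05. The median there was 0.44, and -0.02 without knock-in female normal 1.

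The guanylate-binding proteins and immunity-related GTPases, which attack the vacuoles of intracellular pathogens, were called in 0 of the 9 comparisons, as were the peptide-processing genes. Gbp2 (chr3:142620663-142638008), the GTPase with the highest mean level, was at 57.7, 34.2 and 68.9 CPM in normal colon of wild-type males, 24.7, 45.4 and 42.3 CPM in wild-type male tumours, 34.2, 126 and 23.3 CPM in knock-in male normal colon and 17.9, 29.9 and 83.0 CPM in knock-in male tumours. In females it was at 44.7, 35.3 and 51.7 CPM in wild-type normal colon, 27.3, 31.6 and 25.2 CPM in wild-type tumours and 176, 59.2 and 32.4 CPM in knock-in normal colon 1, a and b. A single library stood far above the others in each of the 3 knock-in groups. Iigp1 spanned a 20.2-fold range over the 21 libraries. Reads of the Gbp genes, and of Igtp and its neighbour Irgm2, may be shared between copies.

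The GTPases and the antiviral effectors did not follow the same order of libraries. In wild-type male tumours, tumour 1 was the lowest of 3 for 7 of 7 GTPases and 3 of 3 peptide-processing genes, and the highest for 13 of 19 antiviral effectors. Tumour 2 was the highest for 7 of 7 GTPases. In wild-type male normal colon, library 3 was the lowest for 16 of 19 antiviral effectors and the highest for 4 of 7 GTPases. In knock-in male normal 2 and knock-in female normal 1, in contrast, GTPases, peptide-processing genes and most effectors were the highest together, with 16 and 19 of the 19 effectors. These counts describe 3 libraries a group and were not tested.

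Tap1 (chr17:34187556-34197225) encodes a subunit of the peptide transporter and neighbours Psmb8 and Psmb9, which encode immunoproteasome subunits. It was at 59.4, 36.5 and 52.8 CPM in normal colon of wild-type males, 46.4, 69.0 and 55.0 CPM in wild-type male tumours, 33.7, 77.3 and 30.0 CPM in knock-in male normal colon and 18.5, 16.9 and 57.0 CPM in knock-in male tumours. Knock-in male tumours 1 and 2 were below all other male libraries, and tumour 3 was not. In normal colon of wild-type females it was at 22.2, 28.2 and 32.4 CPM, in wild-type female tumours at 33.8, 20.8 and 18.7 CPM and in normal colon of knock-in females at 104, 60.4 and 31.8 CPM. The largest tumour differences in this role were those of Psmb8 (edgeR log2 fold change -1.15, SE 0.44, adjusted p 0.0725) and Psmb9 (edgeR log2 fold change -1.11, SE 0.48, adjusted p 0.108) in knock-in males, which did not pass.

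Cxcl9 (chr5:92321331-92328079), the other CXCR3 ligand and a target of interferon gamma, was at 4.25, 2.17 and 2.69 CPM in normal colon of wild-type males and at 3.17, 11.1 and 13.0 CPM in tumours, with tumour 1 inside the range of normal colon. In knock-in males it was at 0.935, 3.61 and 0.865 CPM in normal colon and 2.04, 0.296 and 11.2 CPM in tumours, high in tumour 3 alone. In wild-type females it was at 0.888, 0.279 and 1.24 CPM in normal colon, where library 2 held 2 counts and so lay under the floor of 3, and at 7.61, 1.87 and 3.15 CPM in tumours. Those tumours lay above all 3 normal libraries but did not pass the test (edgeR log2 fold change 2.35, SE 1.09, adjusted p 0.085). Cxcl10 was at 0.845, 1.39 and 1.08 CPM in normal colon of wild-type females and at 3.53, 2.46 and 1.85 CPM in tumours, also without overlap and without a call (edgeR log2 fold change 1.27, SE 0.61, adjusted p 0.0924).

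Genes on other steps of the pathway were counted from lists. Of 13 interferon genes, 7 had 0 counts in every library, Ifnb1 among them, and only Ifnk passed the low-count filter. Ifng had at most 3 counts in any library. Interferon transcripts were thus not detectable at this depth for most of the list, which allows each of the genes at 0 up to 3 counts a library. Ifnk, the interferon kappa gene, was lower in female normal colon of the knock-in (edgeR log2 fold change -1.04, SE 0.27, adjusted p 0.0148).

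Of the 10 receptor and JAK-STAT genes, 3 rose and 3 fell in wild-type male tumours, 2 rose and 0 fell in knock-in male tumours, and 2 rose and 3 fell in wild-type female tumours. The shares of all genes called were 35.7%, 20.4% and 49.1% in the same order. The type I receptor subunit gene Ifnar2 rose in wild-type males (edgeR log2 fold change 0.91, SE 0.23, adjusted p 0.00444) and females (edgeR log2 fold change 1.57, SE 0.24, adjusted p 2.91e-05). Ifngr1, a subunit of the interferon gamma receptor, fell in wild-type males (edgeR log2 fold change -1.14, SE 0.16, adjusted p 5.43e-05) and females (edgeR log2 fold change -1.37, SE 0.16, adjusted p 2.91e-06). In male tumours it was higher in the knock-in (edgeR log2 fold change 0.67, SE 0.16, adjusted p 0.0155), the only one of the 10 called there. That comparison called 14.5% of all genes.

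Of the 12 inducers upstream of interferon that were tested, Tmem173, which encodes the DNA-sensing adaptor STING, rose most in wild-type male (edgeR log2 fold change 1.91, SE 0.33, adjusted p 0.000364) and female tumours (edgeR log2 fold change 3.02, SE 0.35, adjusted p 3.51e-06). It had a lower level in the knock-in in male tumours (edgeR log2 fold change -1.0, SE 0.32, adjusted p 0.0465). Mavs, the adaptor of the RNA sensors, fell in wild-type male (edgeR log2 fold change -0.45, SE 0.15, adjusted p 0.0213) and female tumours (edgeR log2 fold change -0.93, SE 0.15, adjusted p 4.72e-05). In these 2 comparisons 1 and 3 of the 12 rose and 2 and 3 fell, and in knock-in male tumours 0 rose and 2 fell. The shares of all genes called were 35.7%, 49.1% and 20.4% in the same order.

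Of the 7 feedback and negative regulators, Irf2, which competes with Irf1 for its sites, fell in tumours of wild-type males (edgeR log2 fold change -1.11, SE 0.16, adjusted p 7.42e-05), knock-in males (edgeR log2 fold change -0.64, SE 0.16, adjusted p 0.0118) and wild-type females (edgeR log2 fold change -0.94, SE 0.16, adjusted p 0.000121). Adar, which edits double-stranded RNA, was lower in tumours than in normal colon of wild-type females (edgeR log2 fold change -0.42, SE 0.09, adjusted p 0.00121). Tumours of wild-type males and knock-in males gave no such call. Adar was also lower in male tumours of the knock-in (edgeR log2 fold change -0.36, SE 0.09, adjusted p 0.0209) and in female than in male wild-type tumours (edgeR log2 fold change -0.44, SE 0.09, adjusted p 0.0349). Of the others, Socs3 and Ptpn2 were called in comparisons of normal colon only.

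A list of 56 other interferon-stimulated genes, 52 of them tested, gave 6 lower and 0 higher in male tumours of the knock-in, with a median log2 fold change of -0.32. The lower ones with the largest fold were Oas1b (edgeR log2 fold change -1.75, SE 0.43, adjusted p 0.0156), Lgals3bp (edgeR log2 fold change -1.12, SE 0.23, adjusted p 0.009), Ifitm2 (edgeR log2 fold change -0.88, SE 0.19, adjusted p 0.0104) and Ifi35 (edgeR log2 fold change -0.65, SE 0.16, adjusted p 0.0151). In tumours against normal colon 4 rose and 8 fell in wild-type males, 0 rose and 10 fell in knock-in males, and 5 rose and 17 fell in wild-type females. Over all genes 35.7%, 20.4% and 49.1% were called in these comparisons and 14.5% in male tumours between the genotypes. With both directions counted, the list's share of calls was below that of all genes in each. The share called lower was above that of all genes in 3 of the 4 comparisons. It was 6 of 52 against 5.23% in male tumours between the genotypes and 10 of 52 against 9.97% in knock-in males. In wild-type females it was 17 of 52 against 24.0%, and in wild-type males 8 of 52 against 19.3%, below all genes. These shares were not compared by a test. The genes Ifitm1, Ifitm2 and Ifitm3, which encode membrane proteins that block viral entry, were among those that rose in wild-type males, with Ifitm1 at the largest fold (edgeR log2 fold change 2.16, SE 0.60, adjusted p 0.0109), and in wild-type females (edgeR log2 fold change 3.24, SE 0.65, adjusted p 0.000698 for Ifitm1). The antigen presentation gene H2-T23 fell in tumours of wild-type males (edgeR log2 fold change -0.47, SE 0.18, adjusted p 0.0471), knock-in males (edgeR log2 fold change -1.05, SE 0.18, adjusted p 0.00233) and wild-type females (edgeR log2 fold change -1.15, SE 0.18, adjusted p 5.17e-05).

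The authors' deposited table of DESeq2 comparisons gave 12 members lower and 0 higher in male tumours of the knock-in at an adjusted p of 0.05. Of the genes in the authors' deposited table, 18.8% of those with an adjusted p passed in that comparison, and the members' median log2 fold change was -0.92. For tumours against normal colon, the authors' deposited table gave 6 members higher and 2 lower in wild-type males, where 32.8% of its genes passed, and 0 higher and 2 lower in knock-in males, where 23.1% passed. In female against male wild-type tumours 0 were higher and 4 lower (6.61% of its genes passed). Between the genotypes in female normal colon 1 was higher and 1 lower (18.4%). Between the sexes in wild-type normal colon 2 were higher and 0 lower (20.1%). Its comparisons of the genotypes in male normal colon (0.0336%) and of the sexes in knock-in normal colon (3.52%) gave 0 members.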

How the data were processed

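Total RNA came from a Qiazol extraction, ribosomal RNA was digested with RNase H, and random-hexamer libraries were run on a NovaSeq instrument (per the labels' protocols). The submitters' processing notes name Trimmomatic, HISAT2, featureCounts, DESeq2 and the mm10 build, and versions and the strand setting are not given in the sources used here. The deposited count table holds whole-number counts per gene for 21 libraries, which the authors had not normalized. The authors' deposited comparison table gives log2 fold changes and adjusted p-values per gene, and 21 per-library columns in it were not used.

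Counts were fitted for all 7 groups together with edgeR 4.0.16 (R 4.3.3): TMM scaling, the tool's filter on low counts by group, a robust quasi-likelihood fit with 1 coefficient a group, two-sided F tests for 9 comparisons and 3 interactions, and Benjamini-Hochberg adjustment over the 15936 tested genes at a threshold of 0.05. Standard errors are the log2 fold change divided by the square root of F. The 95% intervals use the normal distribution on these standard errors, which makes them narrower than intervals that allow for the few libraries. They are not adjusted for the number of genes, so an interval wholly above or below no change is not a call. The fitting code was tested on simulated counts. Alternatives were DESeq2 1.42.0, limma 3.58.1 voom, other scalings and filters, a fit of the compared groups alone, a replicate block, a covariate for late library numbers, a GC and length offset, and the omission of each library.

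The labels give replicate numbers. Libraries with the same number deviated together in all 3 pairs for tumour against normal colon of wild-type males only (correlations 0.169, 0.174 and 0.215). The members and lists were chosen with earlier results of these data known. Values per library are given for the member of highest mean level in each role and for up to 3 members a role with the largest log2 fold change among those called between tumour and normal colon or between genotypes. Values for Rsad2, Bst2, Xaf1 and Isg15 were added after their results were seen.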

Additional observations from a re-analysis of the deposited data

Results flagged for a closer look

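The tumour effect on Mx1 differed between wild-type females and males by -2.91 on the log2 scale (SE 0.59, edgeR adjusted p 0.0246), tested as an interaction of sex and tissue with 3 libraries a group. All 3 female tumours were below all 3 female normal libraries, and all 3 male tumours were above all 3 male normal libraries. In wild-type females, however, normal 3 (4.96 CPM) and tumour 1 (4.89 CPM) lay close together, and normal 1 and 2 stood far above normal 3. Without wild-type male normal 1, male tumour 1, female normal 1, female normal 2, female tumour 2 or female tumour 3 the interaction did not pass, with adjusted p from 0.0566 to 0.0765 and values from -2.96 to -2.57. It did not pass with the replicate block either (-2.83, adjusted p 0.0586) or with the covariate for late library numbers (-2.69, adjusted p 0.0947).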

How the results depend on the processing

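The counts of members called moved by more than 1.5 times in 27 of 126 alternatives other than the omission of a library, and in 25 of 90 omissions; the cause was not tested. Tumours against normal colon in wild-type males had 7 calls, 11 with the compared groups alone and 2 to 6 when 1 library was left out. In knock-in males there were 0 calls, 2 with DESeq2 and 1 each with a mean of at least 50 counts, the replicate block, the covariate for late library numbers, the GC and length offset and that offset with the block, and 0 to 3 in omissions. Wild-type females had 10 calls and 8 to 10 in omissions, where Dhx58, Rsad2 or Usp18 lost its call. Knock-in against wild-type male tumours had 8 calls, 13 with limma voom, 5 with the replicate block, 1 with the covariate, 4 with the GC and length offset, 3 with that offset and the block, and 0 to 10 in omissions. The genotypes in female normal colon had 1 call, 3 with DESeq2, 4 with limma voom and 0 to 2 in omissions. Female against male wild-type normal colon had 1 call, 2 with DESeq2, 3 with limma voom, 4 with the compared groups alone and 0 to 2 in omissions. Female against male wild-type tumours had 0 calls, 5 with DESeq2, 17 with limma voom, 7 with the compared groups alone, 1 with the replicate block and 0 to 3 in omissions. The sexes in knock-in normal colon had 0 calls, 1 with limma voom and 0 to 1 in omissions. The genotype difference of the tumour effect had 0 calls and 1 with DESeq2. The sex difference of the tumour effect had 1 call, 2 with DESeq2, 4 with limma voom, 0 with the covariate, 2 with the GC and length offset and block, and 0 to 4 in omissions. No called member changed direction. Single members called in a comparison kept their call in 263 results of these alternatives and lost it in 40, and in omissions the numbers were 105 and 69. For tumours against normal colon of wild-type males, where libraries with the same number deviated together, the block gave 6 calls. The labels do not say that libraries with the same number come from the same animal. Library totals in place of TMM moved the median of all genes to 0.15 in wild-type female tumours. Low counts limit Cxcl9 and Cxcl10 most, and library totals differ widely.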
